A study of Mus musculus with 8 samples.

Results

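Interferon-stimulated genes were followed on 8 arrays of granulocytic myeloid-derived suppressor cells (Gr-MDSCs), immature neutrophil-like cells that restrain T cells. The list holds 45 genes, 35 that answer mainly to type I interferons, here called type I-like, and 10 that answer strongly to interferon gamma, here called gamma-like, although many answer to both. Of the 45 genes, 43 had a probe set of their own on the array, which were 33 of the 35 type I-like genes and all 10 gamma-like genes. Isg15 shared its probe set with another gene and Ifi44 had no named probe set here, so neither has a value. Each gene is given by 1 probe set, the one with the highest mean over the 8 arrays: 27 genes had a single probe set and 16 had several. All 43 lay among the 14237 genes that were tested, which are those in the upper 66.7% of probe sets by mean signal.

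The cells came from prostate tumors of male mice aged 12 to 16 weeks. All of them carried PB-Cre+, with the floxed alleles PtenL/L, p53L/L and Smad4L/L and the reporters mTmGL/+ and LSL-LucL/+. The PB promoter drives Cre in prostate epithelium. Once a tumor reached 150 mm3 the mouse was castrated and fed enzalutamide, an androgen receptor antagonist, for 4 weeks, and Gr-MDSCs were then taken from the tumor by magnetic sorting. The cells were treated at once, outside the body, for 6 h with the vehicle DMSO (4 arrays, numbered 2 to 5 in the labels), with 0.1 µM Dactolisib, a dual PI3K and mTOR inhibitor (2 arrays), or with 0.1 µM Dasatinib, an inhibitor of Src family and Abl kinases (2 arrays). Whether arrays of a treatment stem from different mice or cultures is not given in the sources used here. The p-values thus cover the spread among these arrays alone, which may be technical, and the small number of arrays limits the precision.

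Type I interferons bind the receptor of Ifnar1 and Ifnar2 and send a complex with Stat2 and Irf9 to the nucleus, where it binds the interferon-stimulated response element (ISRE). Interferon gamma binds Ifngr1 and Ifngr2 and acts through the gamma-activated site (GAS), and the Irf1 gene it switches on codes for a factor that binds ISREs in turn. The induced genes degrade or sequester viral RNA, hold viruses at membranes and attack the vacuoles of intracellular parasites, and myeloid cells of tumors are known to carry such a program.

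The upstream sequences of 6 members are shown because the comparisons below turn on these genes. They are the 250 bases before a start in RefSeq (GRCm38.p6), written along the gene's strand. Every match to an ISRE (GAAANNGAAA) or a GAS (TTCNNNGAA) on either strand is in capitals. Irf1 and Gbp3 have 2 windows each, and the window with the most matches to either motif is shown. Their other window held no match.
Ifit1, chr19:34640639-34640888, plus strand: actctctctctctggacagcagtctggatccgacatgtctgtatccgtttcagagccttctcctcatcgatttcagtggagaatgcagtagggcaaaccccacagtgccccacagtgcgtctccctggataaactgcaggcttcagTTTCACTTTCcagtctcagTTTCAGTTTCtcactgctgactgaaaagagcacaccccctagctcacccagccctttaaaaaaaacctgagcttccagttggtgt
Ifit3, chr19:34583279-34583528, plus strand: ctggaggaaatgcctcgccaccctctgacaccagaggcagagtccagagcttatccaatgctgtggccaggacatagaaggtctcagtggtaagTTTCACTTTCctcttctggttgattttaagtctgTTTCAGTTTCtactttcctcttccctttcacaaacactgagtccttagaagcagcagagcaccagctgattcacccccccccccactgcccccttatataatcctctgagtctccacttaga
Irf1, chr11:53769764-53770013, plus strand: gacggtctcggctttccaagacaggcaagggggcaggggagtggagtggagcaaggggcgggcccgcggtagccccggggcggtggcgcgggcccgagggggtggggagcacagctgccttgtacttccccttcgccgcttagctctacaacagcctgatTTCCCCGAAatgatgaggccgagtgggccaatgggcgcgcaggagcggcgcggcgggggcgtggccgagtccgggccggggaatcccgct
Gbp2, chr3:142620413-142620662, plus strand: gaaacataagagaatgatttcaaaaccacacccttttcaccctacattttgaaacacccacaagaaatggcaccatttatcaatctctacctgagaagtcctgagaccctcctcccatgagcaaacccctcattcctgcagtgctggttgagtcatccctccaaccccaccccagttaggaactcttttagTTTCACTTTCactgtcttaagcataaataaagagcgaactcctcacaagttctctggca
Gbp3, chr3:142559794-142560043, plus strand: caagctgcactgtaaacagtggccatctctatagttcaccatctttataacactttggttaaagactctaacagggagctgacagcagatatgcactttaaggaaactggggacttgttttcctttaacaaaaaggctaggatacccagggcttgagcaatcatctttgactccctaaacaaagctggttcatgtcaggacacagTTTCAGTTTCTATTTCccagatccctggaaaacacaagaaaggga
Irgm1, chr11:48871421-48871670, minus strand: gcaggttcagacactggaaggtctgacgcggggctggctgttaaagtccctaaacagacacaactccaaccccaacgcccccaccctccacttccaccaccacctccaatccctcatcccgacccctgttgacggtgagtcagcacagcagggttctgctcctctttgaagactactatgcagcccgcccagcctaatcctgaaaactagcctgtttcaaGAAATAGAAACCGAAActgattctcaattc
Ifit1 and Ifit3 each held 2 ISRE matches before the start, Gbp3 and Irgm1 held 2 that overlap, and Gbp2 held 1, at 50 to 59 bases before the start. In the window shown, Irf1 held a GAS at 82 to 90 bases before the start and no ISRE letters. Windows of 300 bases, 250 before to 50 after a start, were given for 32 of the 43 measured members. An ISRE lay in at least 1 window of 17 of these 32 genes (53.1%), against 3.99% of all 27025 genes with a window. The count was 11 of 24 type I-like genes (45.8%) and 6 of 8 gamma-like genes (75%). A GAS lay in windows of 11 of the 32 genes (34.4%), 7 of them type I-like and 4 gamma-like, against 9.55% of all genes. A match is a run of letters and was not tested for binding, and a window without one says only that these letters are not in it.

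Before the results, a property of the arrays has to be given, because it crosses the treatments. With every interferon gene left out, average linkage over 29820 probe sets put the arrays into 3 sets. Set A held DMSO 2 and DMSO 4 beside Dactolisib 1. Set B held DMSO 3 beside the second array of either drug. Set C held DMSO 5 beside Dasatinib 1. The neutrophil genes S100a8 and S100a9 were bright on every array, at log2 signals of 13.53 to 13.85 and 13.69 to 14.12, and Ly6g was not analysed here. Markers of other cells differed between the sets. The median log2 signal of 10 epithelial markers ranged from 8.93 to 9.18 over set A and from 6.81 to 7.31 over set B, and it was 11.95 on Dasatinib 1 and 11.88 on DMSO 5. The median of 12 granulocyte markers ranged from 10.75 to 11.07 over set A and from 9.80 to 9.92 over the other 5 arrays, and that of 6 seminal vesicle markers was 8.53 on Dasatinib 1, 11.18 on DMSO 5 and at most 2.75 elsewhere. Values are therefore given for each array, for each drug against all DMSO arrays, and for each drug array less the DMSO arrays of its own set. In bulk RNA, fewer cells of a type and less RNA per cell cannot be told apart.

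Over sets A and B the interferon-stimulated genes split by array set more than by drug. In set C, Dasatinib 1 lay above DMSO 5 for most members, as given below. On all 3 arrays of set B, 39 of 43 members (90.7%) had a higher signal than on all 3 arrays of set A, against 15.8% of all genes tested. Among the DMSO arrays alone, the median member was 0.91 higher in log2 on DMSO 3, the DMSO array of set B, than on DMSO 2 and DMSO 4 of set A, while the median over all genes tested differed by 0.00. The median was 0.89 over the type I-like and 0.93 over the gamma-like members. DMSO 3 exceeded both of those arrays by more than 0.5 for 36 of 43 members (83.7%), against 2.31% of all genes. DMSO 5, the DMSO array of set C, lay at a median of -0.14 (type I-like) and -0.18 (gamma-like) from the DMSO arrays of set A. Even within set A, 40 of 43 members were higher on DMSO 2 than on DMSO 4 (93%, against 51.1% of all genes), by a median of 0.13. The array sets were drawn from the data and are not groups of the study, so these differences carry no test.

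**Figure D1:**
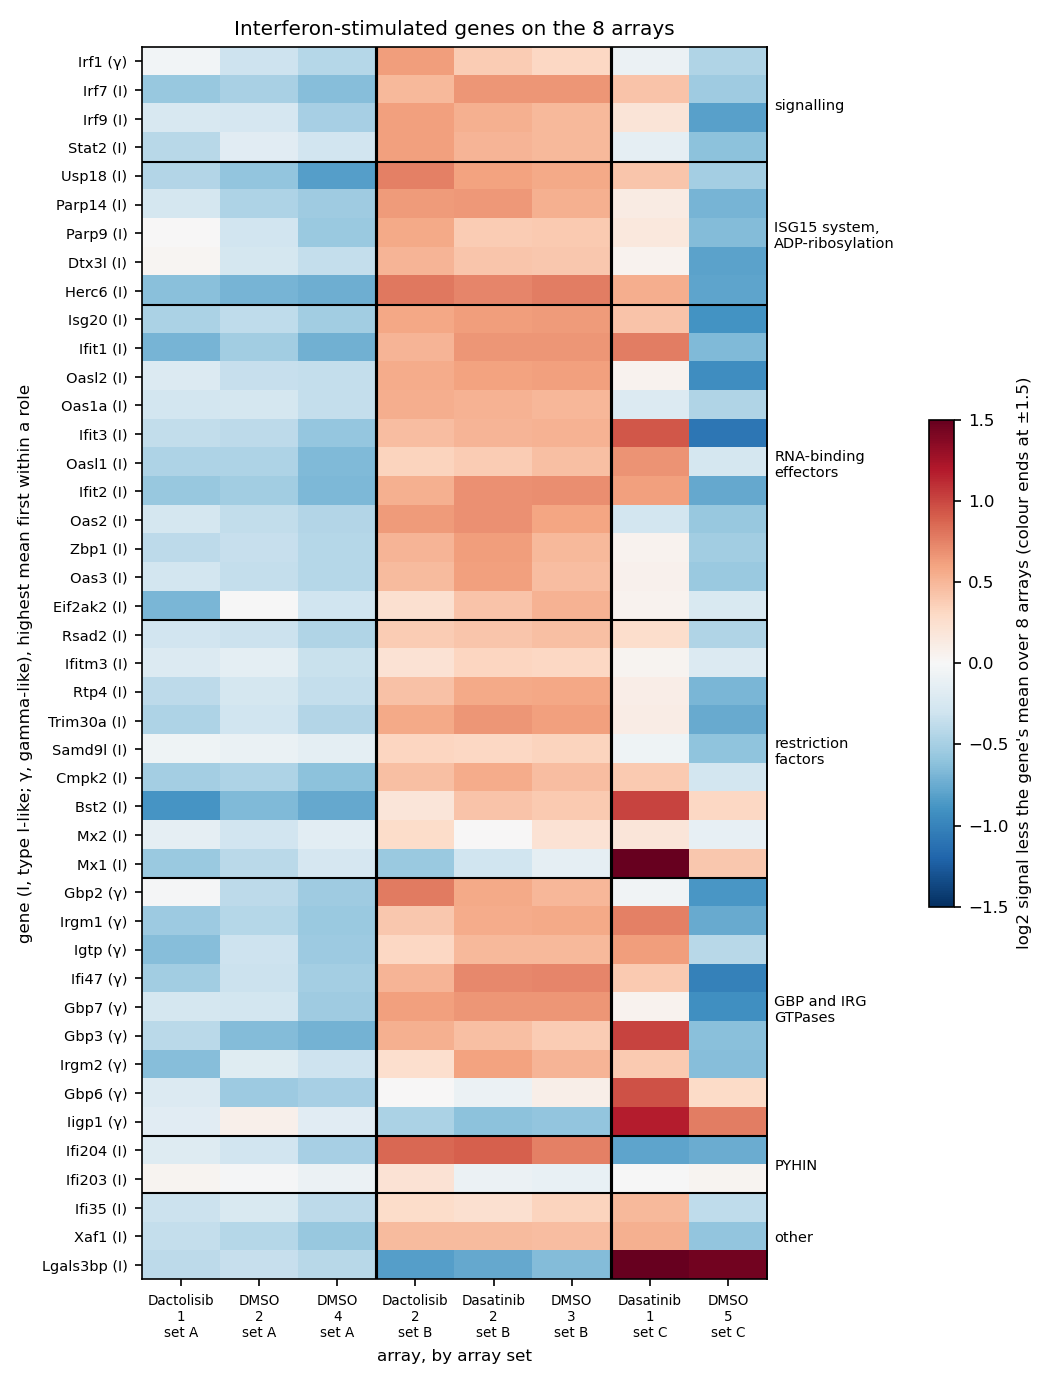
Log2 signal of the 43 measured members less each gene's mean over the 8 arrays, with arrays ordered by array set and genes by role. Set B is red in nearly every row whichever treatment its arrays had, Dasatinib 1 is red and DMSO 5 blue in most rows of set C, and Mx1, Lgals3bp and Iigp1 are not higher in set B than in set A.

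Among the members that carry the signal, Irf7, the factor that amplifies type I interferon production, had log2 signals of 9.53, 10.68, 9.38 and 9.49 on DMSO 2 to DMSO 5, 9.46 and 10.51 on Dactolisib 1 and 2, and 10.45 and 10.69 on Dasatinib 1 and 2. The arrays split into a low group (set A and DMSO 5) and a high group (set B and Dasatinib 1), and each treatment had an array in both except Dasatinib, which had none in the low group. Irf9, the DNA-binding subunit of the type I complex, showed a like split with Dasatinib 1 in between, with 9.26, 9.99, 9.01 and 8.69 under DMSO, 9.27 and 10.12 under Dactolisib and 9.70 and 10.04 under Dasatinib. Stat2, its partner, had 6.48, 7.13, 6.35 and 6.03 under DMSO, 6.22 and 7.26 under Dactolisib, and 6.51 and 7.16 under Dasatinib. On this probe set of Stat2 the signal of Dasatinib 1 lay next to DMSO 2, so that only the set B arrays were high. Dasatinib 1 was 0.48 above DMSO 5 on it, but 0.82 above on the other Stat2 probe set. On that other one DMSO 3 was 0.75 above the DMSO arrays of set A. Irf1, which binds ISREs and is an early target of interferon gamma, had 10.33, 10.96, 10.21 and 10.18 under DMSO, 10.60 and 11.26 under Dactolisib, and 10.55 and 11.02 under Dasatinib. All groups overlapped for these 4 genes.

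In the ISG15 system and the ADP-ribosylation genes, Usp18, which strips ISG15 from proteins and damps the type I receptor, had 9.45, 10.61, 9.21 and 9.53 under DMSO, 9.60 and 10.80 under Dactolisib, and 10.45 and 10.64 under Dasatinib. Parp9, an ADP-ribosyltransferase family member, had 8.65, 9.33, 8.39 and 8.29 under DMSO, 8.94 and 9.51 under Dactolisib, and 9.10 and 9.32 under Dasatinib. Dtx3l, the ubiquitin ligase that pairs with Parp9, had 8.65, 9.32, 8.56 and 8.11 under DMSO, 8.94 and 9.42 under Dactolisib, and 8.97 and 9.33 under Dasatinib. DMSO 3 lay above Dactolisib 1 and Dasatinib 1 for all 3 of these genes, and the other DMSO arrays lay below every drug array. Herc6, the ligase that attaches ISG15 in mice, differed 2.78-fold between DMSO 3 and the DMSO arrays of set A, and Parp14, another ADP-ribosyltransferase, gave 2.04-fold.

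The RNA-binding effectors included Ifit1, which binds viral RNA that lacks the host's cap marks, with 9.99, 11.17, 9.79 and 9.85 under DMSO, 9.81 and 11.02 under Dactolisib, and 11.28 and 11.17 under Dasatinib. Ifit3, a partner of Ifit1, had 9.81, 10.72, 9.62 and 9.11 under DMSO, 9.82 and 10.65 under Dactolisib, and 11.12 and 10.70 under Dasatinib. For both genes Dasatinib 1 was the highest of the 8 arrays and DMSO 3 lay level with the set B drug arrays, so that the DMSO and Dasatinib groups overlapped. Isg20, an RNA exonuclease, had 10.47, 11.50, 10.34 and 9.96 under DMSO, 10.38 and 11.43 under Dactolisib, and 11.28 and 11.48 under Dasatinib. Oasl1, which restrains Irf7 translation in mice, had 9.57, 10.48, 9.36 and 9.76 under DMSO, 9.57 and 10.36 under Dactolisib, and 10.71 and 10.41 under Dasatinib. The oligoadenylate synthetases Oas1a, Oas2 and Oas3, which switch on RNase L, and their relatives Oasl1 and Oasl2 differed by 0.82 to 1.02 in log2 between DMSO 3 and the DMSO arrays of set A. Eif2ak2, the kinase PKR that halts translation on double-stranded RNA, had 6.47, 7.0, 6.18 and 6.25 under DMSO, 5.79 and 6.72 under Dactolisib, and 6.53 and 6.90 under Dasatinib. Its lowest array was Dactolisib 1, as it was for 4 members in all (with Igtp, Bst2 and Mx1).

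Of the restriction factors, Rsad2 (viperin), which makes a chain-terminating nucleotide, had 12.31, 13.07, 12.18 and 12.18 under DMSO, 12.34 and 13.01 under Dactolisib, and 12.89 and 13.04 under Dasatinib. Mx1, a GTPase that traps viral nucleocapsids, had 4.59, 4.86, 4.74 and 5.40 under DMSO, 4.44 and 4.44 under Dactolisib, and 6.79 and 4.69 under Dasatinib. Rsad2 showed the split of Irf7, high in set B and on Dasatinib 1, whereas Mx1 was highest on both arrays of set C. The Dactolisib arrays lay below all DMSO arrays for Mx1, as they did for 10.8% of all genes. Its signal was low on every array but Dasatinib 1, at 4.44 to 5.40, near the array medians of 4.82 to 4.87. Bst2 (tetherin), which holds budding virus at the membrane, was also higher on DMSO 5 (8.52) than on DMSO 2 (7.56) and DMSO 4 (7.44), in this case with DMSO 3 at 8.61. Ifitm3, which blocks fusion of virus in endosomes, spanned 0.66 from its lowest to its highest array, and Mx2 spanned 0.56.

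The interferon-inducible GTPases fall into the guanylate-binding proteins and the immunity-related GTPases, which act together on the vacuoles of intracellular pathogens. Gbp2 had 10.88, 11.76, 10.74 and 10.40 under DMSO, 11.25 and 12.05 under Dactolisib, and 11.21 and 11.84 under Dasatinib. Gbp3 had 7.88, 8.91, 7.82 and 7.91 under DMSO, 8.13 and 9.07 under Dactolisib, and 9.54 and 8.98 under Dasatinib, and Gbp7 had 8.38, 9.30, 8.11 and 7.73, then 8.39 and 9.26, then 8.70 and 9.31. For Gbp3 both Dasatinib arrays lay above all 4 DMSO arrays, and for Gbp2 Dasatinib 1 lay below DMSO 3. Irgm1, a regulator of the other immunity-related GTPases, had 8.84, 9.83, 8.72 and 8.52 under DMSO, 8.72 and 9.68 under Dactolisib, and 10.02 and 9.83 under Dasatinib. Irgm2 had 7.63, 8.33, 7.51 and 7.18 under DMSO, 7.18 and 8.07 under Dactolisib, and 8.21 and 8.42 under Dasatinib. Igtp (Irgm3) had 8.82, 9.62, 8.58 and 8.71 under DMSO, 8.49 and 9.44 under Dactolisib, and 9.75 and 9.62 under Dasatinib. In these 3 genes each Dactolisib array was below the mean of the DMSO arrays of its own set, and for Gbp2 and Gbp3 each was above it. Iigp1, an effector of the same family, went the other way across the sets, with 5.21, 4.55, 4.97 and 5.90 under DMSO, 4.97 and 4.67 under Dactolisib, and 6.31 and 4.52 under Dasatinib, and was lowest in set B.

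A small number of members did not follow the split. Lgals3bp, a secreted glycoprotein that binds galectins, had 7.87, 7.55, 7.80 and 9.66 under DMSO, 7.81 and 7.39 under Dactolisib, and 10.15 and 7.44 under Dasatinib. Together with Mx1, Iigp1 and Gbp6 it is 1 of 4 members (9.3%, against 24.6% of all genes) that were highest on both arrays of set C, which are also the arrays with the highest epithelial markers. Whether epithelial RNA contributed to these 4 was not tested. Ifi204, a sensor of DNA in the PYHIN family, had 8.20, 9.24, 7.99 and 7.74 under DMSO, 8.29 and 9.34 under Dactolisib, and 7.69 and 9.38 under Dasatinib. It was high in set B only, and unlike most members it was not high on Dasatinib 1. Ifi203, of the same family, was flat at 6.82 to 7.15 on all arrays although 1 of its 2 windows holds an ISRE. Ifi35 had 9.98, 10.54, 9.82 and 9.83 under DMSO, 9.89 and 10.48 under Dactolisib, and 10.69 and 10.45 under Dasatinib, and Xaf1, a proapoptotic factor, had 9.52, 10.40, 9.38 and 9.35, then 9.59 and 10.42, then 10.48 and 10.42. Both Ifi35 and Xaf1 kept to the split, with Dasatinib 1 the highest array.

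**Figure D2:**
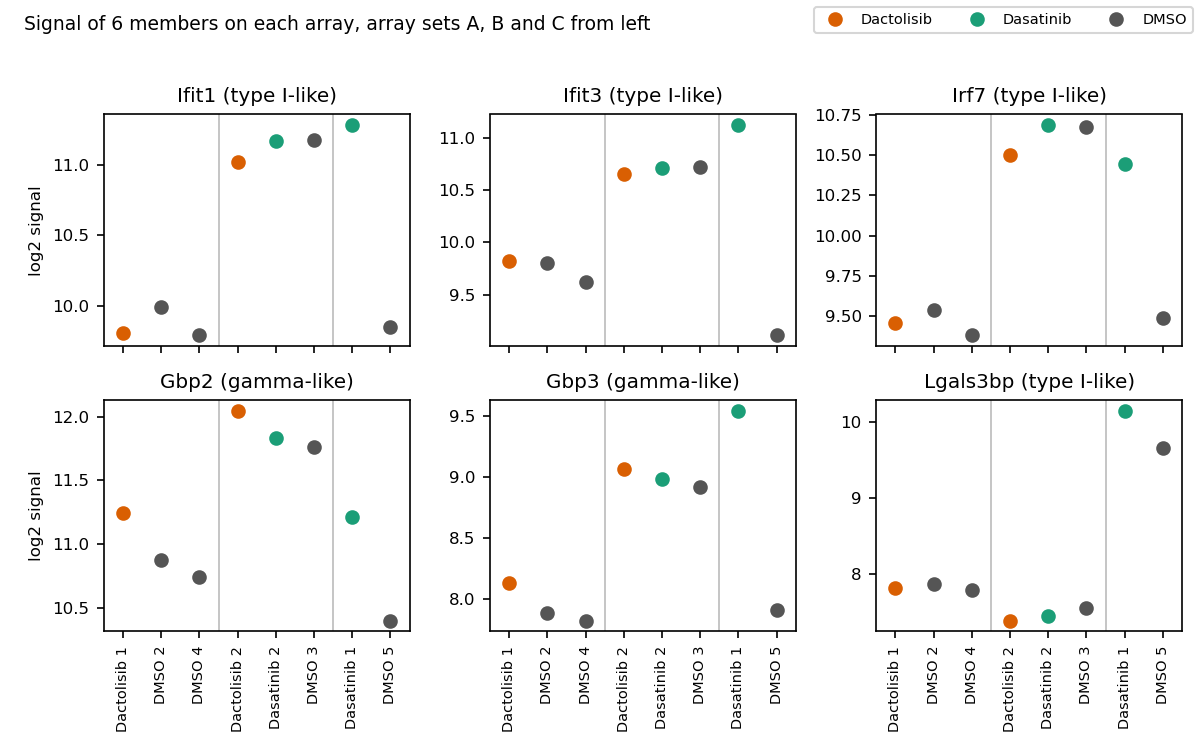
Log2 signal of 6 members on each array, ordered by array set from left to right and colored by treatment, with an axis of its own for each gene. Ifit1, Ifit3, Irf7 and Gbp3 are high in set B and on Dasatinib 1, Gbp2 is high in set B, and Lgals3bp is high on Dasatinib 1 (10.15) and DMSO 5 (9.66).

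The type I-like and the gamma-like members moved together on 7 of the 8 arrays. Each member was set against its mean over the DMSO arrays, and the median of each class was taken per array. The type I-like medians were -0.13, 0.69, -0.24 and -0.34 on DMSO 2 to DMSO 5, and the gamma-like medians were -0.08, 0.73, -0.25 and -0.35. On Dactolisib 1 and 2 the type I-like medians were -0.13 and 0.74 and the gamma-like medians were -0.11 and 0.74. On Dasatinib 2 the medians were 0.76 and 0.80. The difference between the classes lay between -0.05 and 0.01 on these 7 arrays. On Dasatinib 1 the type I-like median was 0.43 and the gamma-like median 0.74, a difference of -0.31. Averaged over a drug's arrays and set against the DMSO arrays, the difference between the classes was 0.01 under Dactolisib and -0.16 under Dasatinib, beside an SD of 0.03 over the 4 DMSO arrays. With a narrower type I-like list the value under Dasatinib was -0.01, and without Dasatinib 1 it was -0.026, so the gap between the classes rests on 1 array and on which genes count as type I-like.

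**Figure D3:**
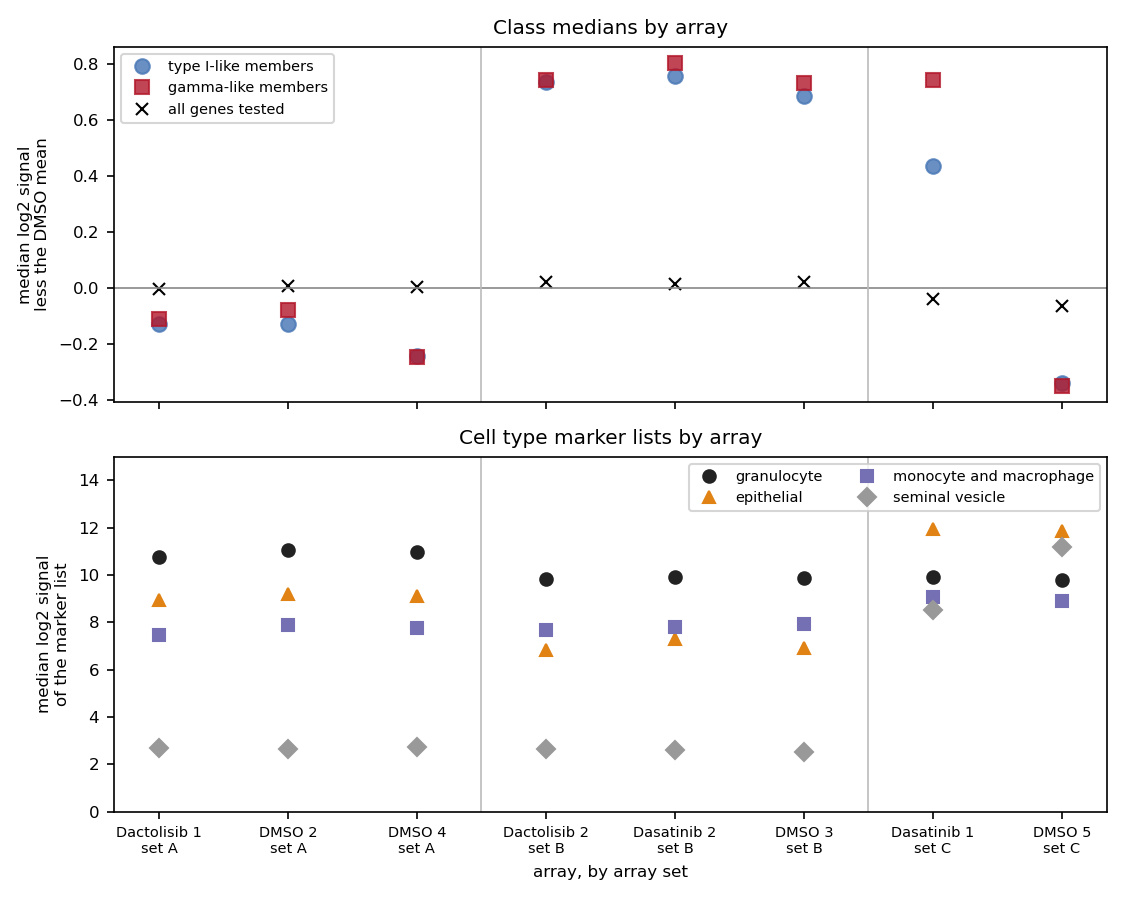
Upper panel, the median of each class per array, as log2 signal less the mean over the 4 DMSO arrays, with the median over all genes tested as crosses; lower panel, the median log2 signal of 4 cell type marker lists on the same arrays. The classes lie between 0.69 and 0.80 in set B and below 0 in set A and on DMSO 5, and part from each other on Dasatinib 1, while epithelial markers are lowest in set B and highest in set C.

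Under Dactolisib the members as a whole stayed near the DMSO arrays of their own set, with small shifts in both directions. Less the DMSO arrays of its own set, the median member differed by 0.06 on Dactolisib 1 and by -0.05 on Dactolisib 2. The class medians were 0.06 and 0.04 (type I-like and gamma-like) on Dactolisib 1 and -0.02 and -0.07 on Dactolisib 2. Within 0.25 of DMSO lay 34 of 43 members (79.1%, against 79.7% of all genes) on Dactolisib 1 and 37 (86%, against 73.7%) on Dactolisib 2. Some members kept their sign on both arrays: 16 were above DMSO on both (37.2%, against 31.6% of all genes) and 13 below (30.2%, against 35.4%), so these shares lay near those of all genes. Both Dactolisib arrays lay above all 4 DMSO arrays for Ifi203 alone (1 of 43, against 11.1% of all genes) and below them for Mx1 alone (1 of 43, against 10.8%).

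Gbp2 was the member furthest above DMSO on Dactolisib 1, by 0.44, and was 0.29 above on Dactolisib 2, and Irf1 was 0.32 and 0.31 above. In the fit with the array set as a block, called within array sets here, Gbp2 differed by 0.38 ± 0.09 (SE, 2 Dactolisib against 3 DMSO arrays; limma adjusted p = 0.0491) and was the only member that rose past an adjusted p of 0.05. Irf1 differed by 0.32 ± 0.08 (limma adjusted p = 0.0623), and Irgm2 by -0.34 ± 0.08 (limma adjusted p = 0.0605), from -0.39 and -0.26 on the 2 arrays. Eif2ak2 differed by -0.43 ± 0.11 (limma adjusted p = 0.0689), but its other probe sets lay at -0.06 and 0.09 on Dactolisib 1, against -0.53 for the one used. Mx1, the antiviral GTPase, differed by -0.31 ± 0.09 (limma adjusted p = 0.09), at a low signal on all of these arrays. Parp9, Gbp3 and Dtx3l differed by 0.32 ± 0.11, 0.23 ± 0.08 and 0.24 ± 0.09, with adjusted p between 0.128 and 0.163. These 8 are the members with the lowest p in this fit and were named after their values were seen.

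Families of members lay differently against DMSO under Dactolisib. All 5 members of the ISG15 system and ADP-ribosylation group (Usp18, Herc6, Parp9, Dtx3l and Parp14) were above their own DMSO arrays on both Dactolisib arrays, by 0.09 to 0.42 on the first and 0.03 to 0.18 on the second, where 31.6% of all genes were above on both. The other probe sets of Herc6 lay at -0.10, 0.08 and 0.02 on Dactolisib 1. Of the 4 guanylate-binding proteins, 4 were above DMSO on Dactolisib 1 and 2 on Dactolisib 2, against 46.2% and 50% of all genes. Of the 5 immunity-related GTPases, 0 were above on Dactolisib 1 and 1 on Dactolisib 2. The plan held these GTPases as 1 role group of 9, of which 4 were above on Dactolisib 1 and 3 on Dactolisib 2. With so few genes these are counts only, and the difference between the families was not tested.

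Counts of Dactolisib calls were small in either fit. Without the block, which was the planned comparison with all 4 DMSO arrays, limma passed 0 members at adjusted p < 0.05 (0% of all genes) and 0 at unadjusted p < 0.05, against 2.73% of all genes higher and 3.72% lower, and the methods' t-test also passed 0 at both thresholds. The median member difference in that fit was 0.26, with 37 of 43 above 0, but it was 0.74 without Dactolisib 1 and -0.13 without Dactolisib 2. Gbp2 stood at 0.71 ± 0.41 and Irf1 at 0.51 ± 0.29. Within array sets limma passed 1 member higher and 0 lower at adjusted p < 0.05, against 2.24% of all genes higher and 4.66% lower. At unadjusted p < 0.05 it passed 6 higher and 3 lower (Gbp2, Irf1, Parp9, Gbp3, Dtx3l and Usp18, and Irgm2, Eif2ak2 and Mx1), which are 14% and 7% of the members, against 9.17% and 15.1% of all genes. Without Dactolisib 1, Dactolisib 2 or DMSO 3 no gene passed within array sets at adjusted p < 0.05, and without DMSO 4 no member did (lowest limma adjusted p = 0.0516).

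Dasatinib gave different results in its 2 array sets. On Dasatinib 1 the members were higher than on DMSO 5 by a median of 0.83, and 32 of 43 (74.4%) exceeded it by more than 0.5, against 4.67% of all genes and a median over all genes of 0.02. The class medians were 0.81 for type I-like and 1.0 for gamma-like members. Ifit3 was 4.02-fold higher (2.01 in log2), Gbp3 3.11-fold, Irgm1 2.83-fold, Ifit1 2.70-fold, Ifi47 2.64-fold and Mx1 2.61-fold. For Mx1 the signal on DMSO 5 was low, at 5.40. At the other end, Oas1a was 0.24 higher in log2 and Ifi203 and Ifi204 were at -0.05 and -0.06. On Dasatinib 2 the median member differed from DMSO 3 by 0.01, and all 43 members lay within 0.25 of it, against 92% of all genes. The largest differences there were -0.21 for Mx2 and 0.15 for Oas3.

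**Figure D4:**
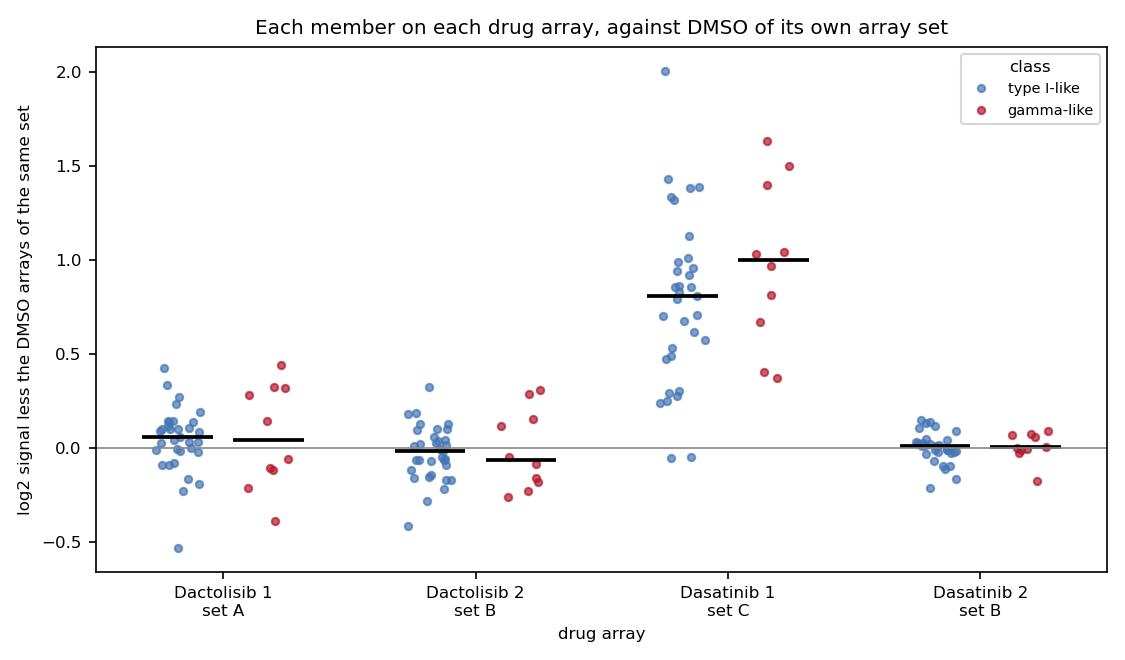
Each point is 1 member on 1 drug array, as log2 signal less the DMSO arrays of the same array set, in blue for type I-like and red for gamma-like members, with a black bar at the class median. Members of Dasatinib 1 reach 2.01 around medians of 0.81 and 1.0, and those of the other 3 drug arrays lie between -0.53 and 0.44.

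DMSO 5, the only DMSO array beside Dasatinib 1, differed from it in more than interferon genes. Its seminal vesicle markers had a median log2 signal of 11.18 against 8.53, while the medians of epithelial markers (11.88 and 11.95), granulocyte markers (9.80 and 9.90) and monocyte and macrophage markers (8.89 and 9.05) lay close. Single markers differed more. Of all genes tested, 53.6% were higher on Dasatinib 1 than on DMSO 5. Of the 12 granulocyte markers 8 were lower on Dasatinib 1 than on DMSO 5. The largest falls were in Ngp (6.70 against 8.94), Cd177 (4.60 against 6.26) and Mmp8 (7.48 against 9.08). The 4 higher were Cxcr2 (8.55 against 8.23), Mmp9 (10.42 against 10.21), Camp (6.85 against 6.47) and Ltf (12.48 against 12.30). Of the 10 epithelial markers 6 were higher and 4 lower, with Krt5 (8.72 against 10.34) and Krt14 (9.95 against 11.41) furthest apart. Of the 11 monocyte and macrophage markers 8 were higher, among them Adgre1 (9.43 against 8.69) and Cd68 (11.67 against 10.99). The 3 lower were C1qa (9.05 against 9.13), C1qc (7.99 against 8.04) and Mrc1 (6.10 against 6.56). DMSO 5 was the lowest of the 8 arrays for 24 of 43 members (55.8%, against 30.6% of all genes). Dasatinib 1 exceeded not only DMSO 5 but also all 3 arrays of set A for 37 of 43 members (86%, against 19.3% of all genes), among them Ifit1, Irf7, Rsad2 and Irgm1, although set A differs from set C in the markers above. The 6 others were Oas2, Samd9l, Ifi203, Ifi204, Irf1 and Gbp2. Markers of plasmacytoid dendritic cells, which make type I interferon, had medians of 5.46 on Dasatinib 1 and 5.38 on DMSO 5, within 5.38 to 5.70 on all arrays, and 3 of the 6 were higher on Dasatinib 1, with differences of -0.32 to 1.05. The part of any of these in the result was not tested, and with 1 Dasatinib array in set C the drug and the sample cannot be told apart there.

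In the planned comparison of Dasatinib with all 4 DMSO arrays, the median member was 0.60 higher, and 42 of 43 were above 0, with Ifi203 the exception. The class medians were 0.58 and 0.64. Limma passed 0 members at adjusted p < 0.05 (0% of all genes) and the methods' t-test passed 0 at both thresholds. At unadjusted p < 0.05 limma gave 6 higher, which are Gbp3, Ifit3, Irgm1, Igtp, Ifit1 and Xaf1, or 14% of the members against 0.14% of all genes, and 0 lower against 0.162%. Gbp3 differed by 1.13 ± 0.36 (SE), Ifit3 by 1.10 ± 0.43, Irgm1 by 0.95 ± 0.37, Igtp by 0.75 ± 0.30, Ifit1 by 1.03 ± 0.41 and Xaf1 by 0.79 ± 0.32, all with a limma adjusted p of 1. Without DMSO 3, 31 of 43 members were higher at unadjusted p < 0.05 in limma, against 195 of all 14237 genes. After adjustment 0 members and 0 of all genes passed in that fit. Both Dasatinib arrays lay above all 4 DMSO arrays for 4 members, Gbp3, Igtp, Xaf1 and Bst2 (9.3%, against 1.66% of all genes). The margin was small: Dasatinib 2 exceeded DMSO 3 by only 0.068, 0.001, 0.019 and 0.028 in log2 for these 4. The Dasatinib arrays lay in sets B and C and 2 of the 4 DMSO arrays lay in set A, where the members were low, so array set and treatment cannot be told apart in this fit.

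Within array sets the Dasatinib difference was 0.43 for the median member, 0.39 for the type I-like and 0.50 for the gamma-like class, with 42 of 43 above 0. At unadjusted p < 0.05 there were 13 higher and 0 lower, that is 30.2% of the members against 1.86% of all genes higher and 2.1% lower, and 0 passed at adjusted p < 0.05 (0% of all genes, lowest adjusted p = 0.851 in limma). The 13 were Oas3, Parp14, Zbp1, Irgm2, Gbp3, Cmpk2, Gbp2, Ifit3, Irgm1, Xaf1, Irf9, Trim30a and Ifit1. Both arrays enter these values as a mean of 1 large and 1 small difference: for Ifit3, 1.0 ± 0.40 (SE) averages 2.01 on Dasatinib 1 and -0.01 on Dasatinib 2. Without Dasatinib 2 the fit sets Dasatinib 1 against DMSO 5 and takes the spread from set A alone, so it compares single arrays. In it 24 members passed higher at adjusted p < 0.05 and 0 lower, against 1.73% and 1.26% of all genes, and leaving out DMSO 3 gave the same counts of members. Without Dasatinib 1 or DMSO 5 the median member difference was 0.01 and 0 members passed at either threshold. Leaving out either of these arrays removes set C from the comparison, so the within-set difference rests on that 1 pair of arrays. Without the block, leaving out Dasatinib 1 gave a median of 0.76 with 39 of 43 above 0 and 0 members at unadjusted p < 0.05, where Dasatinib 2 of set B is set against DMSO arrays of all 3 sets.

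**Figure D5:**
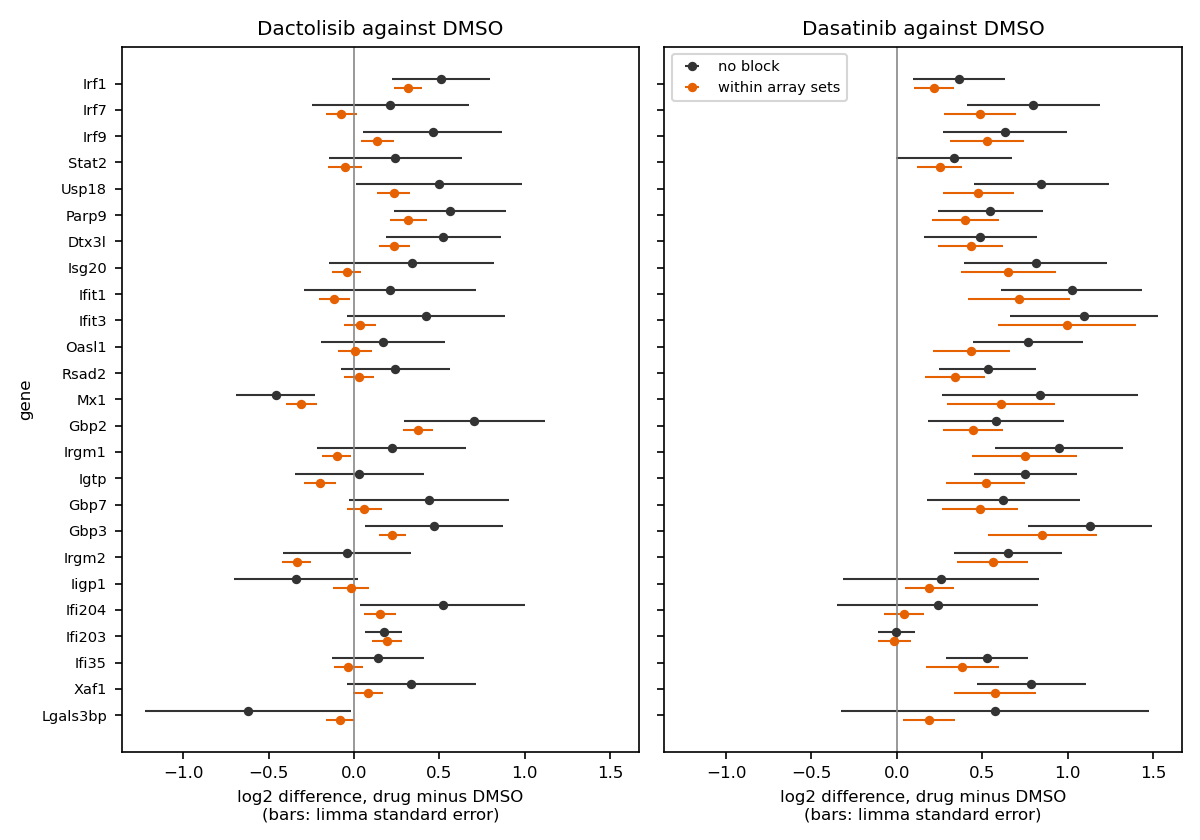
Log2 difference from DMSO with its limma standard error for the members named by rule, fitted without a block (dark) and within array sets (orange), for Dactolisib (left) and Dasatinib (right). Under Dactolisib most differences lie nearer 0 within array sets, other than those of Irgm2, Igtp and Ifi203, with Gbp2 at 0.38 and Irf1 at 0.32, and under Dasatinib they stay above 0 for all genes shown but Ifi203.

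Set against each other, the drugs did not differ for any member after adjustment. The median member was 0.35 lower in log2 under Dactolisib than under Dasatinib in a fit of all 8 arrays, and limma passed 0 at adjusted p < 0.05 (0% of all genes) and 0 at unadjusted p < 0.05, against 1.44% of all genes higher and 2.4% lower, as did the methods' t-test. Mx1 differed by -1.30 ± 0.61 (SE) and Bst2 by -1.07 ± 0.52, both with a limma adjusted p of 0.841. The Mx1 signal was low on every array but Dasatinib 1. Within array sets the median was -0.28. There 0 members were higher and 3 lower at unadjusted p < 0.05, against 5.07% and 9.78% of all genes, and 0 passed after adjustment (0% of all genes). The 3 were Irgm2 at -0.73 ± 0.23 (limma adjusted p = 0.223), Bst2 at -0.46 ± 0.17 and Eif2ak2 at -0.41 ± 0.17. These comparisons share the DMSO arrays with those of each drug, and a p that misses the threshold does not show that the drugs act alike. Without Dasatinib 2 the within-set difference for the median member was -0.70, and without Dasatinib 1 it was 0.00.

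Of the other genes of the pathway, the ligands were at low signals. Ifnb1, the beta interferon, had 4.64, 4.77, 4.75 and 4.72 on DMSO 2 to DMSO 5, 4.43 and 4.61 under Dactolisib, and 5.25 and 4.75 under Dasatinib, so that Dasatinib 1 was its highest array, 0.52 above DMSO 5. Ifng and Ifna4 lay below the filter, and Ifna1, Ifna2 and Ifna5 had means of 5.41, 4.23 and 4.31 over the 8 arrays. Ifna2 was lower on DMSO 3 (4.03) than on DMSO 2 (4.26) and DMSO 4 (4.39), opposite to most members. None of the 4 ligands tested passed at unadjusted p < 0.05 without the block in limma, and within array sets Ifnb1 was lower under Dactolisib by -0.22 ± 0.08 (limma adjusted p = 0.154).

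As a group the receptors did not follow the members across the DMSO arrays. Ifnar1 had 10.56, 10.39, 10.36 and 9.13 under DMSO, 10.54 and 10.54 under Dactolisib, and 9.65 and 10.51 under Dasatinib. Ifnar2 had 11.07, 11.14, 10.87 and 9.76, then 11.25 and 11.24, then 9.90 and 11.14, and Ifngr1 had 9.67, 9.19, 9.60 and 8.94, then 9.83 and 9.21, then 8.92 and 9.2. All 3 were lowest on the arrays of set C. Against the DMSO arrays of set A, DMSO 3 was higher by 0.17 for Ifnar2 and by 0.25 for Il10rb. For Ifnar1 and Ifngr1 the difference was -0.07 and -0.44. The 6 receptor genes differed by a median of -0.09 between DMSO 3 and the DMSO arrays of set A and by -0.82 between DMSO 5 and those arrays, and the kinases and Stats (Jak1, Jak2, Tyk2 and Stat3) by 0.09 and -0.63. On Dasatinib 1, however, 8 of these 10 genes were above DMSO 5, as most members were, against 53.6% of all genes. The median difference was 0.28 over the receptors and 0.33 over the kinases and Stats, with 0.52 for Ifnar1, 0.63 for Il10rb and 0.56 for Tyk2. None of the 10 passed a threshold in limma without the block.

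Further induced genes that are not on the list of 45 were described in the same way. Over 25 type I-like and 17 gamma-like genes tested, the median differences were 0.52 and 0.43 between DMSO 3 and the DMSO arrays of set A, 0.44 and 0.69 between Dasatinib 1 and DMSO 5, and -0.01 and -0.03 between Dasatinib 2 and DMSO 3. On Dasatinib 1, 23 of the 25 and 15 of the 17 were above DMSO 5, against 53.6% of all genes. Cxcl10, a chemokine that draws T cells, had the lowest p of all pathway genes under Dasatinib, at 0.75 ± 0.30 (SE), followed by Tap2, a peptide transporter, at 0.48 ± 0.20 and Parp12 at 0.75 ± 0.32, all with a limma adjusted p of 1. Under Dactolisib the lowest were Cd274 (PD-L1) at 0.84 ± 0.31, Socs3, a feedback inhibitor of cytokine receptors, at 0.77 ± 0.34, and Ticam1, an adaptor of Tlr3, at 0.25 ± 0.12, with a limma adjusted p of 0.775.

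Within array sets 8 of the 78 pathway entries tested (Ifih1 is entered in 2 lists) passed limma's adjusted p < 0.05 under Dactolisib. Of these 3 were higher and 5 lower, against 2.24% and 4.66% of all genes, so the counts lay near those shares. These 8 genes are named after their values were seen. Cd274 rose by 0.63 ± 0.09 (SE; limma adjusted p = 0.0152), from 11.21 and 11.12 on DMSO 2 and 4 to 11.90 on Dactolisib 1, and from 11.96 on DMSO 3 to 12.44 on Dactolisib 2. Socs3 rose by 0.49 ± 0.10 and Nlrc5, the activator of MHC class I genes, by 0.34 ± 0.08. Ptpn6 (SHP-1), a phosphatase that damps cytokine signaling, fell by 0.50 ± 0.08 (limma adjusted p = 0.0176). The immunoproteasome subunits Psmb10 and Psmb8 fell by 0.44 ± 0.08 and 0.35 ± 0.08, the chemokine Cxcl11 by 0.49 ± 0.10, and Ifi27l2a, a type I-induced mitochondrial protein, by 0.44 ± 0.09. Their limma adjusted p ranged from 0.0152 to 0.0485. As for Gbp2, none passed without Dactolisib 1, Dactolisib 2 or DMSO 3, since no gene did.

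The probe sets that were not used for a gene were compared with those used. Of 21 further probe sets of 16 members, 19 passed the filter, and all 19 had the same sign as the gene's own probe set for Dasatinib 1 against DMSO 5 and for DMSO 3 against the DMSO arrays of set A. For Dactolisib 1 against set A 14 of the 19 had the same sign, and for Dactolisib 2 against DMSO 3 it was 17. Several members belong to families of close relatives (Ifit, Oas, Gbp, Irgm and Ifi20x genes), and how far their probe sets pick up one another's transcripts was not tested.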

How the data were processed

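RNA of 8 Gr-MDSC samples was measured on Affymetrix mouse arrays, 1 array a sample. The values used were log2 signals as deposited by the authors, for 45101 probe sets with array medians of 4.82 to 4.87, and no scaling was added. The paper names oligo and the submitters' notes MAS5 for the summary, and Trizol and RNeasy are both named for extraction. Treatments follow the titles, because the treatment field of both Dasatinib samples reads Dactolisib. Probe sets were joined to genes through the platform table (34945 with 1 gene, 932 with several, 9160 with none, 64 controls). Those in the upper 66.7% by mean signal (30024 probe sets) were tested with limma 3.58.1 in R 4.3.3 (lmFit, eBayes, Benjamini and Hochberg, threshold 0.05): each drug against DMSO on 6 arrays, the drugs against each other on 8. A list has no test and is described by counts and medians. The array set was used as a block in an alternative. With it a drug against DMSO leaves 2 residual degrees of freedom, and DMSO 5 adds nothing to Dactolisib, nor DMSO 2 and DMSO 4 to Dasatinib other than spread. As a check of the code only, the fit was run on simulated Dasatinib and DMSO arrays with known changes and independent noise. How well it recovers changes in this design is not reported here.

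The members, the classes and the pathway and marker lists were chosen with earlier results of these data known, and the array sets are drawn from the data. Values on all arrays are given for the signalling members, for the members with the widest range and the highest mean in each role, and for the 4 type I-like and 4 gamma-like members with the lowest p in each drug comparison. Of other pathway genes, ligands, receptors and kinases and the 3 with the lowest p are named, and other names were chosen after their values were seen. Alternatives were leaving out each array, other arrays in the fit, a narrower type I-like list, averaging the probe sets of a gene, the methods' t-test, weighting arrays, a robust trended prior, no filter or a stricter one, 32 added before log2, and quantile normalization.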

Additional observations from a re-analysis of the deposited data

Results flagged for a closer look

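Over the 4 DMSO arrays, 7 members had 1 array apart from the other 3, by the gap to the nearest array as a share of the range. This check flags about 1 in 20 groups by chance where arrays are independent. The DMSO arrays fall in 3 array sets, and the share flagged among all genes was not counted. The 7 can therefore not be read as an excess over other genes. DMSO 3 was high for Rsad2 (0.853), Ifit1 (0.856), Irf7 (0.88), Xaf1 (0.838), Gbp3 (0.918) and Herc6 (0.941), and DMSO 5 was high for Lgals3bp (0.852). The members move together, so these are not 7 separate events.

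For 4 members both Dactolisib arrays lay below and both Dasatinib arrays above the DMSO arrays of their own set (9.3%, against 4.99% of all genes), and this opposite direction was not tested. On Dasatinib 2 the differences were only 0.042 for Trim30a, 0.001 for Igtp, 0.028 for Bst2 and 0.09 for Irgm2. On Dasatinib 1 they were 0.86, 1.04, 0.70 and 1.03. The other probe set of Trim30a lay at -0.03 on Dasatinib 2, so it does not show the opposite direction. The mean difference under Dactolisib less that under Dasatinib was -0.52 in log2 for Trim30a, -0.72 for Igtp, -0.56 for Bst2 and -0.89 for Irgm2.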

How the results depend on the processing

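At adjusted p < 0.05, 0 members passed in every comparison under each alternative that keeps all arrays, except 1 (Gbp2) for Dactolisib within array sets. At unadjusted p < 0.05, members higher under Dactolisib numbered 0 of 43 in the planned fit, against 389 of all 14237 genes. They numbered 2 with array weights (938 genes) and 6 within array sets (1305 genes). Members lower numbered 0 in the planned fit (529 genes) and 3 within array sets (2155 genes). Under Dasatinib the members higher numbered 6 in the planned fit (20 genes), 1 with 32 added before log2 (19 genes) and 2 with array weights (23 genes). They numbered 3 with a stricter filter on mean signal (9 of 8174 genes) and 0 by the methods' t-test (50 genes). Within array sets they numbered 13 (265 genes), and 2 with all 8 arrays in 1 fit (21 genes). For Dactolisib against Dasatinib the members lower numbered 0 in the planned fit (341 genes) and 1 with array weights (360 genes). They numbered 3 within array sets (1393 genes) and 1 with the replicate number as a block (replicate block, 458 genes). A drug and DMSO share only 1 replicate number, so no paired fit was possible there, and nothing in the labels says that a number marks a shared animal or day. The difference between the classes was 0.01 for Dactolisib, -0.03 after quantile normalization and -0.0311 with the narrower type I-like list. For Dasatinib it was -0.16, -0.10 with 32 added, -0.0101 with the narrower list, -0.0819 with means in place of medians and -0.0917 against DMSO of the own set.

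Leaving out 1 array at a time without a block kept the adjusted counts at 0 in all 3 comparisons. Within array sets they ranged from 0 to 4 for Dactolisib (4 without DMSO 2), 0 to 24 for Dasatinib (24 without Dasatinib 2 or DMSO 3) and 0 to 21 for Dactolisib against Dasatinib (21 without Dasatinib 2). Leaving out arrays within array sets was chosen after seeing the data. Members higher at unadjusted p < 0.05 ranged from 0 to 6 for Dactolisib without a block (6 without DMSO 3) and 1 to 7 within sets, from 0 to 31 (31 without DMSO 3) and 0 to 36 for Dasatinib (36 without Dasatinib 2 or DMSO 3), and from 0 to 0 and 0 to 1 for the drugs against each other. Members lower ranged from 0 to 1 and 1 to 6 for Dactolisib, were 0 throughout for Dasatinib, and ranged from 0 to 4 and 0 to 35 for the drugs against each other (35 without Dasatinib 2). The type I-like median ranged from -0.13 to 0.74 without a block and -0.02 to 0.06 within sets under Dactolisib, and from 0.43 to 0.78 and 0.0101 to 0.81 under Dasatinib. The gamma-like median ranged from -0.11 to 0.74 and -0.07 to 0.08, and from 0.55 to 0.90 and 0.0039 to 1.0. The class difference ranged from -0.02 to 0.01 under Dactolisib and from -0.29 to -0.026 under Dasatinib.

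Among named genes, the sign turned when an array was left out for Gbp3 under Dactolisib without a block (-0.0014 to 0.94) and Gbp7 within sets (-0.0479 to 0.14, with -0.0182 without DMSO 4), and within sets under Dasatinib for Ifit1 (-0.0049 to 1.44), Ifit3 (-0.0126 to 2.01), Irgm1 (-0.0033 to 1.5) and Oasl1 (-0.0682 to 0.94). The low ends under Dasatinib are the values without Dasatinib 1 or DMSO 5. The cause was not tested.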
